A study of Gallus gallus with 10 samples.

Results

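Glycerolipid acyltransferases, lipins and DGAT2 were followed here as a set of 10 genes: GPAM, AGPAT2, AGPAT3, AGPAT4, AGPAT5, LPIN1, LPIN2, DGAT2, LCLAT1 and LPCAT3. Their members were all probe sets that the array's annotation gives to 1 of these symbols alone, which came to 20 of the 38439 probe sets that are not controls and to 10 of the 13009 genes with a symbol. Of the 10 genes, 4 had 1 probe set, 3 had 2, 2 had 3 and 1 had 4. A probe set is a group of short probes for 1 transcript, and its signal intensity is a hybridization level on a linear scale that also holds background. Identifiers that end in s_at mark probe sets whose probes match several transcripts. Signals of different probe sets were not set against each other as amounts of RNA.

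Abdominal fat was taken from 10 male Arbor Acres chickens at 49 days (7 weeks), with 5 birds from each of a fat and a lean line, and every bird had its own Affymetrix Chicken Genome Array. The lines share 1 origin and were bred apart for high and for low abdominal fat, with plasma very low-density lipoprotein as a further criterion, on the same commercial diet fed freely. The birds on the arrays were those with the highest percentage of abdominal fat in the fat line and those with the lowest in the lean line, so they are the extremes of each line. The question put to the arrays was which genes differ in the abdominal fat of the lines.

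Triglycerides and most phospholipids of a cell are built by the glycerol phosphate pathway. A glycerol phosphate acyltransferase (GPAM) puts a first fatty acid on glycerol phosphate, a lysophosphatidate acyltransferase (the AGPAT enzymes) adds another to give phosphatidate, a lipin removes the phosphate to give diacylglycerol, and a diacylglycerol acyltransferase (DGAT2) adds the last fatty acid to give triglyceride, the store of the fat cell. LPCAT3 and LCLAT1 instead put fatty acids back on lysophospholipids and so remodel membranes.

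The arrays were of fat tissue by their markers: all 8 fat cell markers were measured, and their summed signal was 169816 to 199832 in the fat line and 160387 to 174952 in the lean line. Markers of other tissues differed more between birds, skeletal muscle markers first. Their sum was 37942 in fat line 2, 66082 in lean line 3 and 137522 in lean line 5, against 1023 to 8483 in the other 7 birds, and 10 of the 11 measured markers were higher in each of the 3 birds than in all others. The other 7 birds also differed by line, with 1023 to 1908 in the fat line and 2122 to 8483 in the lean line. All 11 skeletal muscle markers had a negative log2 fold, where 43.9% of all genes had a positive one. Their median was -2.05, with 2 at an unadjusted limma p under 0.05. Of the smooth muscle markers, 5 of the 6 measured were lower in the fat line at an unadjusted limma p under 0.05, beside 3.99% of all probe sets. The median log2 fold over the 6 was -1.19. Their sum was 6333 to 9847 in the fat line, and 29222, 9643, 12785, 53418 and 11646 in lean line 1 to 5, so lean line 2 lay within the fat line range. Of the 5 measured blood cell markers, the globins HBA1 and HBAD had log2 folds of -0.97 and -0.93 (limma adjusted p = 0.494 and 0.518), with overlap of the lines. The others had folds of -0.22 (CD3E), -0.05 (CSF1R) and 0.12 (PTPRC). Liver markers were high in lean line 1 (summed signal 49746) and lean line 5 (25900), against 1299 to 4442 in the others. The median signal of fat line 4 was 276.2, above the range of 185.8 to 234.2 in the other arrays. By the scan headers, fat line 1 to 4, lean line 3 and lean line 5 were scanned on 1 day with 1 scanner. Fat line 5 and lean line 4 were scanned on another day, and lean line 1 and lean line 2 on another, all with another scanner. Scan day, scanner and line thus overlap only in part. The ratio of 3' to 5' control signal, a gauge of RNA quality, was higher in the birds of the other scanner. For ACTB it was 2.281 to 3.093 there, against 1.545 to 2.046, and for GAPDH 1.358 to 1.499, against 0.916 to 1.287. The part of scanner and RNA quality in the values was not tested. In bulk tissue, fewer cells of a type and less RNA per cell cannot be told apart.

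None of the 20 probe sets passed the test between the lines. With limma on log2 signals, 0 of 20 had an adjusted p under 0.05, beside 0.0% of all 38439 probe sets. The significance analysis of microarrays (SAM) at a delta of 0.8 called 0 of 20, beside 0.0%. The study used SAM at the same delta and did call genes, LCLAT1 among them. Its cut was set by delta and not by an adjusted p under 0.05. For LCLAT1 it printed a SAM q-value, an estimate of the false discovery rate, that is above 0.05. It kept only probe sets with a present call and left out 1 fat line bird, so the 0 calls here do not repeat its screen. At an unadjusted p under 0.05 limma gave 2 of 20, both of LCLAT1 and both higher in the fat line, beside 7.38% of all probe sets in either direction (3.38% higher and 3.99% lower). When either scan day or wash run was a block, the count was again 2 but of other members: LCLAT1 GgaAffx.5719.1.S1_at was no longer among them and the brightest DGAT2 probe set was. GgaAffx.5719.1.S1_at was also no longer among them without fat line 1, 3 or 4 or lean line 1, 2 or 3. The log2 fold, fat line minus lean line, was above 0 for 15 of the 20 probe sets, beside 44.3% of all. Taking for each gene its brightest probe set (highest mean log2 signal), 6 genes had a positive fold and 4 a negative one, and the median log2 fold was 0.14, beside -0.05 for the brightest probe sets of all genes. That median was 0.05 without lean line 3 and 0.01 without the 3 birds of high muscle markers. The plot of log2 folds shows how wide the intervals of most members were.

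**Figure D1:**
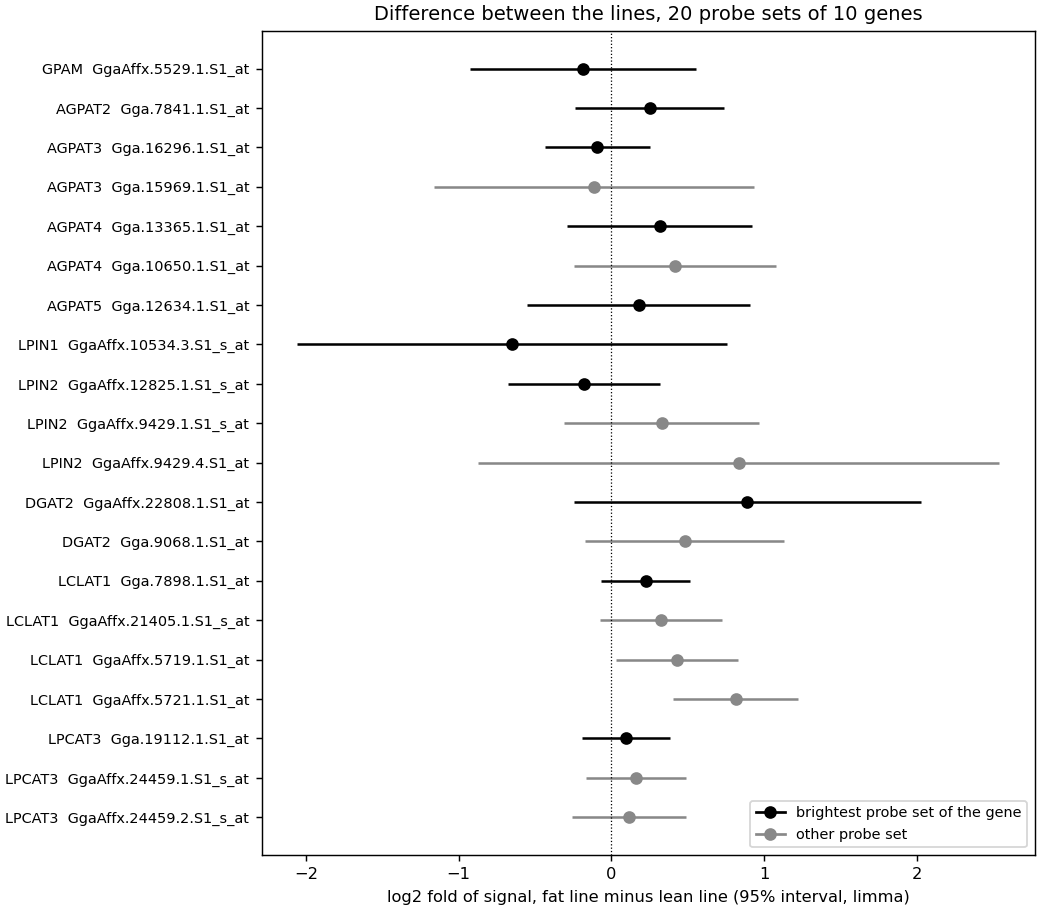
Log2 fold of signal, fat line minus lean line, for the 20 probe sets (points, with 95% intervals from limma as lines). Black marks the brightest probe set of a gene and grey the others. Only the intervals of the LCLAT1 probe sets GgaAffx.5719.1.S1_at and GgaAffx.5721.1.S1_at lie wholly above 0, and neither passed the adjusted threshold of 0.05.

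GPAM codes for the mitochondrial glycerol phosphate acyltransferase, the entry to the pathway. Its only probe set (GgaAffx.5529.1.S1_at) gave signals of 235.2, 139.1, 155.3, 169.3 and 173.9 in fat line 1 to 5, against 122.3, 161.5, 276.5, 318.9 and 164.8 in lean line 1 to 5. The lines overlapped, with the 2 highest birds and the lowest bird all in the lean line. GPAM averaged 174.6 ± 36.5 in the fat line and 208.8 ± 84.2 in the lean line (SD, n = 5 each), a log2 fold of -0.19 ± 0.35 (SE; adjusted p = 0.941 by limma) that was -0.36 without lean line 1 and -0.01 without lean line 4. Its mean signal stood at the 46.3 percentile of all probe sets, under 214.6, the median of the mean signals of all probe sets. Without detection calls, a mean signal this low cannot be told from background.

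Of the lysophosphatidate acyltransferases, AGPAT2 is the isoform that fat cells depend on, and its loss in humans causes a congenital lack of adipose tissue. Its signals were 504.2, 520.3, 482.8, 474.5 and 300.8 in fat line 1 to 5, against 483.9, 380.9, 355.3, 401.8 and 288.0 in lean line 1 to 5. Of the fat line birds, 4 stood above the lean line median of 380.9, while fat line 5 was the second lowest of the 10 birds. AGPAT2 averaged 456.5 ± 88.9 in the fat line and 382.0 ± 71.3 in the lean line (SD, n = 5 each), 1.19-fold higher with a 95% interval of 0.849 to 1.67 (limma adjusted p = 0.855).

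AGPAT3, an isoform of the endoplasmic reticulum and Golgi, varied little between birds. Its brightest probe set (Gga.16296.1.S1_at) read 905.6, 779.7, 622.8, 804.8 and 767.6 in fat line 1 to 5, against 874.2, 702.1, 879.5, 790.4 and 875.6 in lean line 1 to 5. The highest and the lowest of the 10 birds were both of the fat line. The means were 776.1 ± 101.5 in the fat line and 824.4 ± 77.9 in the lean line (SD, n = 5 each), and the log2 fold of -0.09 ± 0.16 (SE; adjusted p = 0.937 by limma) turned to 0.01 when each array was scaled to the same median. The other AGPAT3 probe set lay at the 22.3 percentile, with 37.0 to 139.9 over the 10 birds, and its fold was -0.11.

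AGPAT4, an isoform best known from mammalian brain, was by its brightest probe set the most uneven AGPAT gene in the fat line. Its brightest probe set (Gga.13365.1.S1_at) gave 286.1, 577.8, 996.1, 542.3 and 646.3 in fat line 1 to 5, against 359.4, 530.5, 547.2, 383.5 and 484.2 in lean line 1 to 5. Fat line 3 stood far above all other birds and fat line 1 below all of them. The mean was 609.7 ± 255.4 in the fat line and 461.0 ± 85.3 in the lean line (SD, n = 5 each), a log2 fold of 0.32 ± 0.28 (SE; adjusted p = 0.851 by limma). Without fat line 3 this fold was 0.11, and without fat line 1 it was 0.56. The other AGPAT4 probe set (Gga.10650.1.S1_at) had a fold of 0.42 ± 0.31 (SE), but there fat line 4 was the highest bird, with 704.7, and lean line 1 the lowest, with 184.6.

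AGPAT5, a mitochondrial isoform, lay between 397.1 and 644.2 in 9 birds. Its signals were 397.1, 434.2, 438.1, 416.7 and 540.1 in fat line 1 to 5, against 453.7, 494.9, 135.3, 644.2 and 465.6 in lean line 1 to 5. Lean line 3, the second of the birds in the order of summed skeletal muscle markers, had the lowest signal. The other birds of high muscle markers lay among the 9. Lean line 5, the highest in that order, read 465.6, and the fat line bird of high muscle markers read 434.2. The part of muscle RNA in the AGPAT5 values was not tested. AGPAT5 averaged 445.2 ± 55.5 in the fat line and 438.7 ± 186.0 in the lean line (SD, n = 5 each), with a log2 fold of 0.18 ± 0.34 (SE; adjusted p = 0.943 by limma). Without lean line 3 the lean line mean was 514.6 ± 88.1 (SD, n = 4) and the fold -0.20, so 1 bird set the sign.

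**Figure D2:**
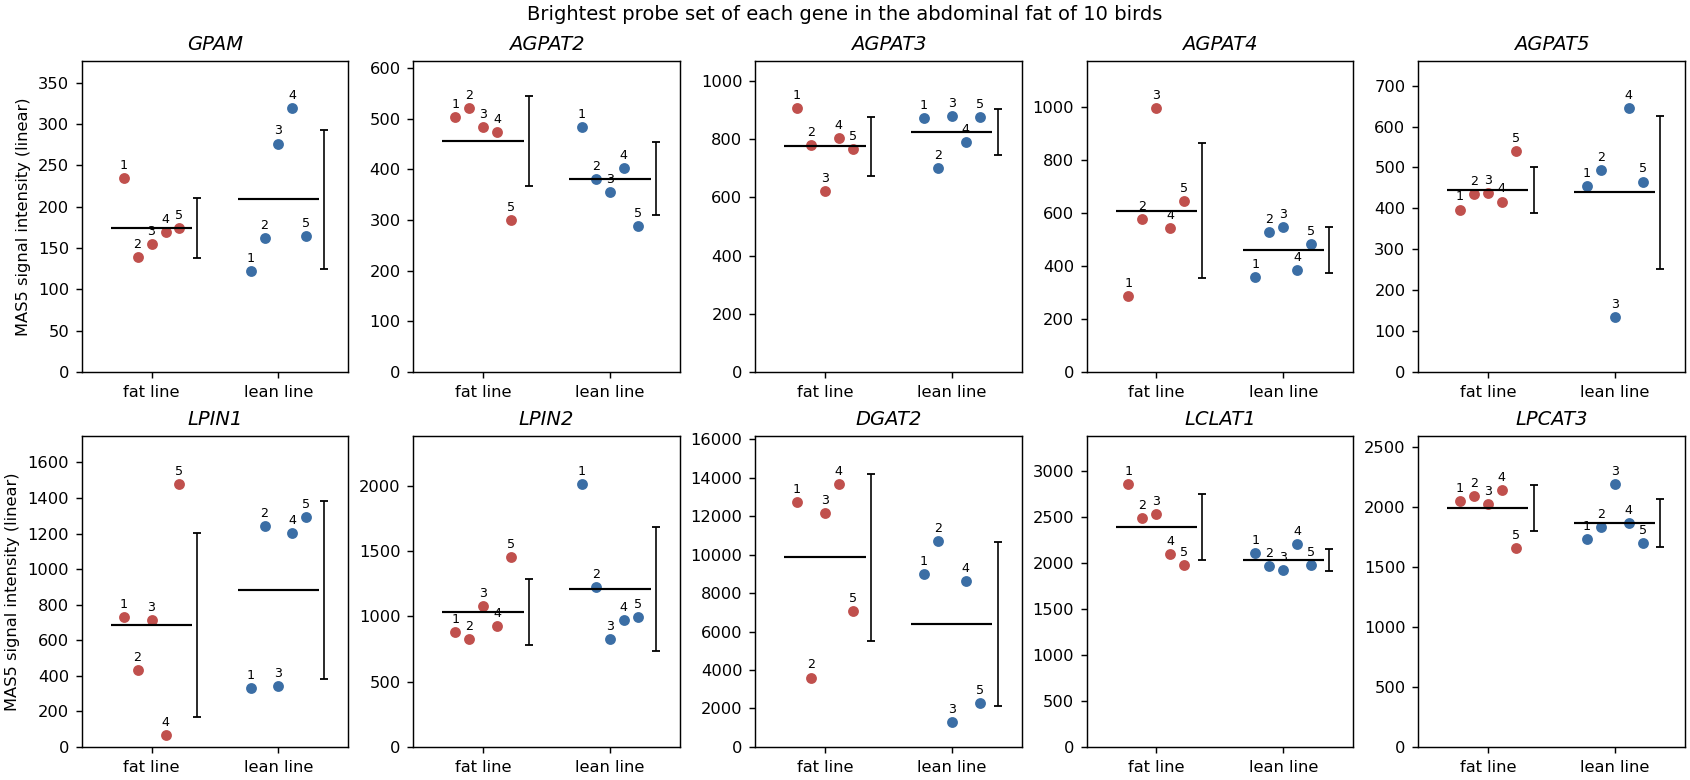
MAS5 signal intensity (linear axis from 0) of the brightest probe set of each of the 10 genes in the abdominal fat of every bird. Numbered points are birds of the fat line (red, left) and the lean line (blue, right), horizontal bars are line means and error bars are the SD (n = 5). The lines overlap in all 10 panels. Lean line 3 stands far below the other birds in AGPAT5 (135.3), and fat line 4 is the lowest of widely spread birds in LPIN1 (68.2).

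The lipins dephosphorylate phosphatidate, and LPIN1 is the main one of mammalian fat. LPIN1 spread more over the birds than any other of the 10 genes by its brightest probe set. It read 728.9, 435.3, 713.4, 68.2 and 1481.1 in fat line 1 to 5, against 333.0, 1240.5, 341.2, 1202.7 and 1292.8 in lean line 1 to 5, a ratio of 21.7 between the highest and the lowest bird. Both lines held birds of high and of low signal. The means were 685.4 ± 519.4 in the fat line and 882.0 ± 498.5 in the lean line (SD, n = 5 each). The log2 fold was -0.65 ± 0.66 (SE; adjusted p = 0.876 by limma), and without fat line 4, whose array had the highest median signal, it was 0.04.

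LPIN2, a lipin best known from liver, had 3 probe sets that did not run alike over the birds. The brightest (GgaAffx.12825.1.S1_s_at) gave 883.0, 827.8, 1079.3, 928.6 and 1452.5 in fat line 1 to 5, against 2019.0, 1222.4, 829.8, 974.3 and 998.4 in lean line 1 to 5. Lean line 1, the bird with the highest liver markers, had the highest LPIN2 signal, while lean line 5, the second in liver markers, read 998.4. Lean line 1 also had the highest summed signal of intestine markers, 5160, against 2113 to 3094 in the other birds. The part of liver or intestine RNA in the LPIN2 values was not tested. The means were 1034 ± 251.8 in the fat line and 1209 ± 474.2 in the lean line (SD, n = 5 each), with a log2 fold of -0.18 ± 0.23 (SE; adjusted p = 0.911 by limma) that was 0.02 without lean line 1 and 0.17 with scan day as a block. The other LPIN2 probe sets had positive folds, 0.33 ± 0.30 (SE) for GgaAffx.9429.1.S1_s_at and 0.83 ± 0.80 (SE) for GgaAffx.9429.4.S1_at. The last of these read 13.1 to 363.1 over the birds, mostly under 214.6, the median of the mean signals of all probe sets. For GgaAffx.9429.1.S1_s_at the lowest bird was again lean line 3, with 156.8, and the fold without it was 0.06.

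DGAT2 makes triglyceride from diacylglycerol and is the last step toward fat storage. Its brightest probe set (GgaAffx.22808.1.S1_at), at the 98.7 percentile of mean signal, read 12737.0, 3609.6, 12188.1, 13694.7 and 7048.6 in fat line 1 to 5, against 9012.5, 10716.7, 1292.2, 8651.2 and 2296.3 in lean line 1 to 5. The 3 highest birds were of the fat line and the 2 lowest of the lean line, but the lines overlapped. DGAT2 averaged 9856 ± 4341 in the fat line and 6394 ± 4285 in the lean line (SD, n = 5 each). The fold was 1.85 with a 95% interval of 0.844 to 4.07 (log2 fold 0.89 ± 0.53, SE), and it did not pass the test (limma adjusted p = 0.763).

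The 3 birds with the lowest DGAT2 signals were the 3 birds with the highest skeletal muscle markers: fat line 2, lean line 3 and lean line 5 had 1292.2 to 3609.6, and the other 7 birds 7048.6 to 13694.7. In the 7 birds DGAT2 averaged 11417 ± 2978 in the fat line (SD, n = 4) and 9460 ± 1103 in the lean line (SD, n = 3), and the log2 fold was 0.23, against 0.89 over all birds. Summed muscle markers still differed by line in the 7 birds, at 1023 to 1908 in the fat line and 2122 to 8483 in the lean line. The other DGAT2 probe set (Gga.9068.1.S1_at) showed the separation less. It gave 1875.9, 1519.9, 1281.2, 2491.2 and 1847.9 in fat line 1 to 5, against 1067.1, 1527.5, 658.3, 2838.2 and 1047.2 in lean line 1 to 5. Lean line 3 and lean line 5 were again the 2 lowest birds, whereas fat line 2 stood in the middle and lean line 4 was the highest. Its means were 1803 ± 456.4 in the fat line and 1428 ± 846.5 in the lean line (SD, n = 5 each), with a log2 fold of 0.48 ± 0.31 (SE; adjusted p = 0.773 by limma), and of 0.13 without the 3 birds. The part of muscle RNA in the DGAT2 values was not tested.

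The DGAT2 fold also differed between fits that took scan day into account. Scan day, scanner and the birds that fell on each day cannot be told apart here. Among birds of the third scan day, fat line 1 to 4 against lean line 3 and lean line 5, the log2 fold of the brightest probe set was 2.44 and that of the other 1.06. Both lean birds of that day had high muscle markers, and so had fat line 2 among the 4 fat line birds, whose signal of 3609.6 on the brightest probe set compares with 1292.2 and 2296.3 in the lean birds. With scan day as a block for all birds the fold of the brightest probe set was 1.70 (limma adjusted p = 0.502). On the first scan day, with 1 bird of each line, it was -0.30. The wash log of lean line 4, the lean line bird of that day, recorded a stop that no other array had. Its part in the values was not tested.

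**Figure D3:**
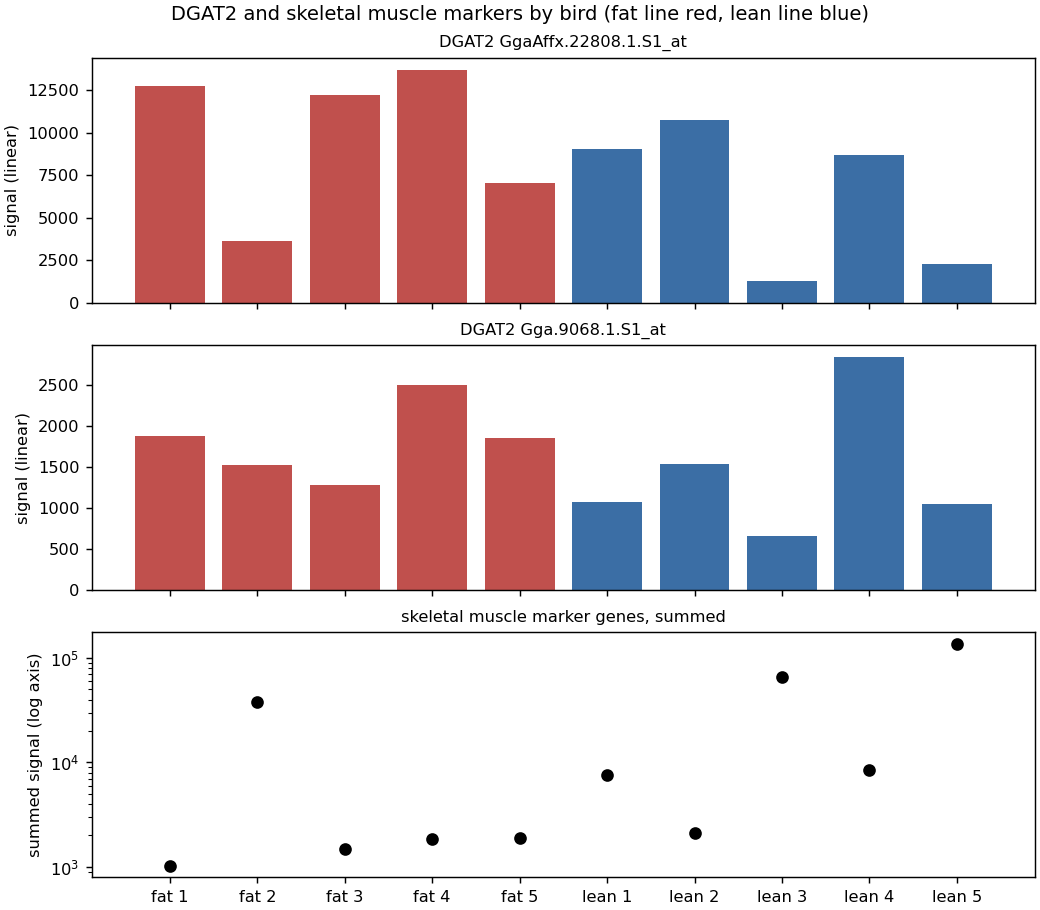
MAS5 signal of the 2 DGAT2 probe sets by bird (bars, linear axes from 0; fat line red, lean line blue) above the summed signal of 11 skeletal muscle marker genes in the same birds (points, log axis). Fat line 2, lean line 3 and lean line 5 hold the 3 highest muscle sums, 37942 to 137522, and the 3 lowest signals of the upper DGAT2 probe set, 1292.2 to 3609.6.

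LCLAT1 acylates lysophospholipids, cardiolipin and phosphatidylinositol precursors among them, and the smallest limma p of the 20 probe sets was one of its own. All 4 of its probe sets had a positive log2 fold. For GgaAffx.5721.1.S1_at the signals were 879.3, 774.2, 1049.3, 635.1 and 681.7 in fat line 1 to 5, against 411.1, 411.4, 548.9, 469.9 and 423.6 in lean line 1 to 5. Every fat line bird lay above every lean line bird, which held for 0.705% of all probe sets, beside 0.687% with every fat line bird below (1.39% without overlap in either direction). The means were 803.9 ± 166.0 in the fat line and 453.0 ± 58.8 in the lean line (SD, n = 5 each), 1.76-fold higher with a 95% interval of 1.32 to 2.33. The exact two-sided permutation test gave p = 0.0079, the smallest that 5 birds against 5 allow, and limma gave p = 0.000693 and an adjusted p of 0.304, since 86 probe sets (0.224%) had a limma p as small or smaller. The study itself listed this probe set from arrays of this series, by SAM without 1 fat line bird that the labels do not identify. Its direction here is therefore not independent evidence.

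GgaAffx.5719.1.S1_at, another LCLAT1 probe set, read 1385.8, 1127.7, 1314.4, 1431.4 and 802.2 in fat line 1 to 5, against 720.1, 836.6, 877.7, 1093.9 and 923.7 in lean line 1 to 5. There 4 fat line birds were above all lean line birds, and fat line 5 was below 4 of the 5 lean line birds. The means were 1212 ± 256.8 in the fat line and 890.4 ± 136.5 in the lean line (SD, n = 5 each), a log2 fold of 0.43 ± 0.19 (SE; adjusted p = 0.656 by limma; exact permutation p = 0.0635). The fold of this probe set was -0.45 between the single birds of the first scan day, fat line 5 and lean line 4.

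The brightest LCLAT1 probe set (Gga.7898.1.S1_at) differed less. It gave 2864.6, 2488.3, 2537.4, 2103.1 and 1978.7 in fat line 1 to 5, against 2114.4, 1963.5, 1919.3, 2203.3 and 1980.8 in lean line 1 to 5. Fat line 1 to 3 were above all lean line birds, and fat line 4 and fat line 5 lay within the lean line range. The means were 2394 ± 356.4 in the fat line and 2036 ± 118.4 in the lean line (SD, n = 5 each), a log2 fold of 0.22 ± 0.14 (SE; adjusted p = 0.770 by limma). The last LCLAT1 probe set (GgaAffx.21405.1.S1_s_at) averaged 1322 ± 318.8 in the fat line and 1038 ± 154.2 in the lean line (SD, n = 5 each), with a fold of 0.33 ± 0.19 (SE) and fat line 4 as its lowest bird at 868.8.

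The folds of the 4 LCLAT1 probe sets thus ran from 0.22 to 0.81 on the log2 scale, and whether they read the same transcript forms was not tested. Without the 3 birds of high muscle markers the fold of GgaAffx.5721.1.S1_at was 0.89, against 0.81 with them, and among birds of the third scan day it was 0.77. Summed skeletal muscle markers of the remaining birds were still lower in the fat line (1023 to 1908) than in the lean line (2122 to 8483). Fat cell markers stood on the higher side in the fat line for 6 of 8 genes (beside 43.9% of all genes), with a median log2 fold of 0.19. The others were ADIPOQ, at -0.58, and FABP4, at -0.03. Smooth muscle markers stood on the lower side for 5 of 6, with a median of -1.19. All 11 skeletal muscle markers (median -2.05) and all 10 liver markers (median -1.67) were on the lower side too. The part of any of these in the LCLAT1 values was not tested.

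**Figure D4:**
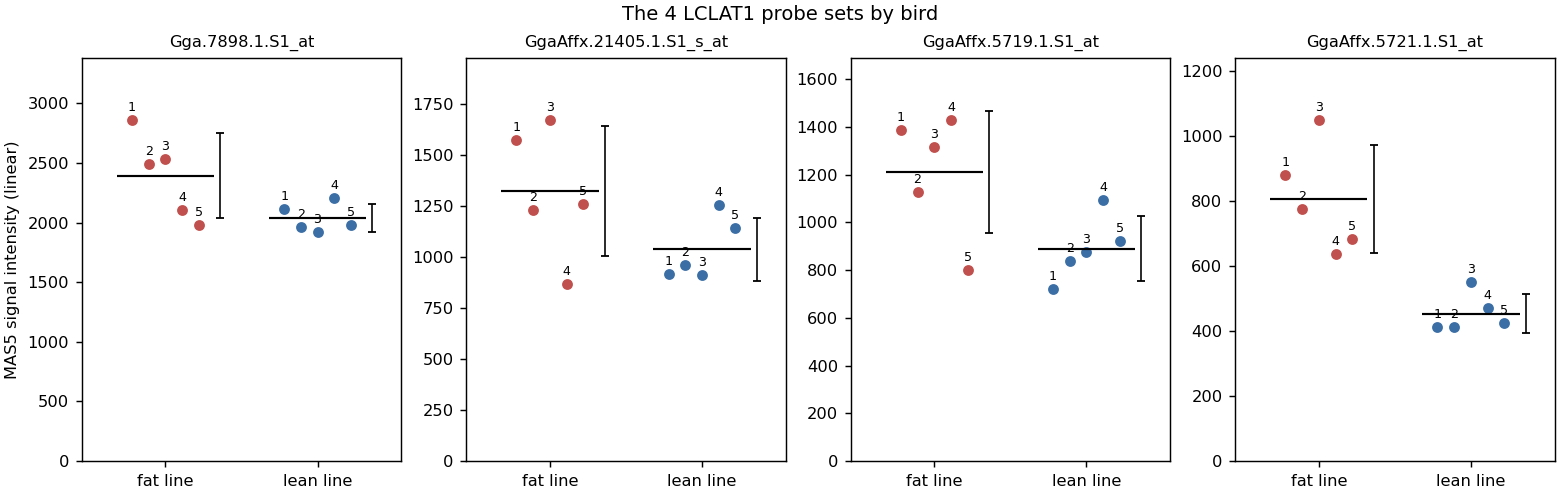
MAS5 signal intensity (linear axes from 0) of the 4 LCLAT1 probe sets in every bird, fat line in red on the left and lean line in blue on the right, with line means (horizontal bars) and SD (error bars, n = 5). The lines separate fully only for GgaAffx.5721.1.S1_at, where the fat line birds read 635.1 to 1049.3 and the lean line birds 411.1 to 548.9.

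LPCAT3 acylates lysophosphatidylcholine, preferring polyunsaturated fatty acids. Its brightest probe set (Gga.19112.1.S1_at) was the steadiest over the birds of all 20 and read 2049.4, 2086.9, 2023.9, 2143.4 and 1655.6 in fat line 1 to 5, against 1727.9, 1834.8, 2193.1, 1868.0 and 1695.4 in lean line 1 to 5. Fat line 5 was the lowest bird and lean line 3 the highest, and the lines overlapped over most of their range. Of the fat line birds, 4 stood above the lean line median of 1834.8. LPCAT3 averaged 1992 ± 193.3 in the fat line and 1864 ± 197.6 in the lean line (SD, n = 5 each), 1.07-fold with a 95% interval of 0.876 to 1.30 (limma adjusted p = 0.921). The other LPCAT3 probe sets had log2 folds of 0.16 ± 0.15 and 0.11 ± 0.18 (SE).

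How far probe sets of 1 gene ran together over the 10 birds was examined for the 15 pairs in the set, by permutation tests adjusted over the pairs, and no pair had an adjusted p under 0.05. Pearson's r of log2 signals was 0.70 for the 2 DGAT2 probe sets (Spearman's rho 0.60; permutation p = 0.0244 and 0.074, adjusted p = 0.0749 and 0.159), and 0.15 without lean line 3 and lean line 5, so that it rested on those birds. The 6 LCLAT1 pairs had r of 0.47 to 0.75, the 3 LPCAT3 pairs 0.26 to 0.66 and the AGPAT4 pair 0.44. The AGPAT3 pair had r of -0.25, which was 0.24 without fat line 3 and lean line 2. The LPIN2 pairs had r of -0.52 to 0.35.

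The 10 genes did not follow 1 pattern over the birds. Of the 45 pairs of genes, taken by their brightest probe sets, 17 had a Pearson r above 0, with a median of -0.08. The lowest was -0.78, between AGPAT3 and AGPAT4, and the highest 0.73, between AGPAT2 and LCLAT1. The median deviation of the 10 genes from their means was highest in fat line 1 (0.24 on the log2 scale) and lowest in lean line 3 (-0.20) and lean line 5 (-0.13).

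Among 9293 genes in the upper range of signal, the genes most like each member over the 10 birds were taken by Pearson's r, as a description in which all points share the same 10 arrays. DGAT2 was closest to POR, the cytochrome P450 reductase (r = 0.93), and to NIPSNAP3A (0.93). LCLAT1 was closest to NDUFAB1, a mitochondrial acyl carrier protein (0.95), and to PHF21A (0.91), LPIN1 to ZFAND1 (0.95) and RP1-27O5.3 (0.94), and AGPAT5 to CAB39L (0.95) and SOCS4 (0.94). For AGPAT2 the closest were TBC1D19 (0.92) and NDUFA2 (0.89), for AGPAT3 NRAS (0.89) and LECT2 (0.87), and for AGPAT4 GOLGA4 (0.90) and C1orf50 (0.84). GPAM was closest to NUP205 (0.88) and MYLKSML (0.88), LPIN2 to VAV3 (0.89) and TMEM184B (0.87), and LPCAT3 to APEH (0.93) and SGTA (0.91).

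The 10 genes were then set beside the rest of glycerolipid metabolism, in 7 lists, none of which held a gene with a limma adjusted p under 0.05. The counts of each list are to be read beside all genes by their brightest probe set, of which 43.9% had a positive log2 fold, with a median of -0.05, and 7.93% an unadjusted p under 0.05. Of the 12 measured of 15 other acyltransferases and phosphatases of the same pathway, 10 had a positive log2 fold and 2 a negative one, with a median of 0.23 and 2 at an unadjusted p under 0.05 (beside 7.93% of all genes). The smallest p was that of LPGAT1, a lysophospholipid acyltransferase that read 3100 ± 477.5 in the fat line and 2088 ± 435.2 in the lean line (SD, n = 5 each). Its lines did not overlap, beside 1.39% of all probe sets in either direction (log2 fold 0.58 ± 0.17, SE; adjusted p = 0.431 by limma). PLPP2, a lipid phosphate phosphatase, had a fold of 0.49 and TMEM68, a membrane acyltransferase, of 0.36, and the brightest, PLPP1, of 0.16. GPAT3, which does the same step as GPAM, read 7712 ± 1846 in the fat line and 6908 ± 2777 in the lean line (SD, n = 5 each). It was lowest in lean line 3 (3549.9) and lean line 5 (4707.4), the 2 lowest birds of DGAT2 as well.

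Among other lysophospholipid acyltransferases, a list that also holds LCAT, the folds of all 5 measured of 8 genes were below 0, with a median of -0.33 and 1 at an unadjusted p under 0.05, where 43.9% of all genes were above 0. MBOAT1, at -0.03, was the nearest to 0, and LCAT was the gene with an unadjusted p under 0.05. The shared direction is that of the list as drawn. LPGAT1, also a lysophospholipid acyltransferase, was counted in the list before and had a fold of 0.58. The brightest probe sets of LCLAT1 and LPCAT3 had positive folds as well. LCAT, the plasma enzyme that esterifies cholesterol, read 173.1, 88.0, 23.6, 71.2 and 43.5 in fat line 1 to 5, against 790.5, 478.7, 307.8, 514.7 and 281.2 in lean line 1 to 5. No fat line bird reached a lean line bird, where 1.39% of all probe sets had no overlap in either direction (log2 fold -2.78 ± 0.50, SE; adjusted p = 0.216 by limma). All fat line signals of LCAT lay under 214.6, the median of the mean signals of all probe sets. Without detection calls, signals this low cannot be told from background, so the size of the fold is uncertain. Liver markers summed to 49746, 1702, 1693, 4442 and 25900 in lean line 1 to 5, and their part in the LCAT values was not tested. LPCAT1 had a fold of -0.36, MBOAT2 of -0.33 and LPCAT2, the brightest, of -0.10.

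Upstream, glycerol phosphate supply had a median fold of -0.16 over 7 of its 8 genes, 2 positive and 5 negative (beside 43.9% positive of all genes), with 2 at an unadjusted p under 0.05 (beside 7.93%). GPD1L and GPD2, glycerol phosphate dehydrogenases of the cytosol and the mitochondrion, had folds of 0.67 and 0.55, and PCK1, the gluconeogenic carboxykinase, of -1.46 at a signal of 19.1 ± 14.5 in the fat line and 70.7 ± 72.9 in the lean line (SD, n = 5 each). Without detection calls, PCK1 signals this low cannot be told from background. GPD1L was also the brightest of the measured genes in this list. The eighth gene, GK, has no probe set under that symbol, but the annotation holds 3 under GK2, a glycerol kinase outside the list. Its brightest probe set averaged 797.9 ± 187.1 in the fat line and 438.9 ± 80.1 in the lean line (SD, n = 5 each), a log2 fold of 0.85 ± 0.22 (SE; adjusted p = 0.333 by limma), and the others had folds of 0.81 and 1.82. The study listed glycerol kinase from these arrays, and GPD2 by another probe set with a larger fold. Neither direction is therefore independent evidence. Its real-time RT-PCR, on the same birds and on pools of others, also found GPD2 higher in the fat line.

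Downstream of phosphatidate, the CDP-diacylglycerol branch toward phosphatidylinositol and cardiolipin had 3 positive and 6 negative folds among 9 measured of 10 genes, with a median of -0.09 and 1 at an unadjusted p under 0.05, beside the same 7.93%. CDS2, the first enzyme of the branch and its brightest gene, read 5201 ± 1172 in the fat line and 3053 ± 701 in the lean line (SD, n = 5 each). The lines did not overlap for CDS2, beside 1.39% of all probe sets in either direction (log2 fold 0.78 ± 0.19, SE; adjusted p = 0.319 by limma). PTDSS2 had a fold of -0.50 and PISD of 0.29. In the CDP-choline and CDP-ethanolamine branch, which spends diacylglycerol on phospholipid, 8 of the 10 measured folds were positive, with a median of 0.28 and 3 at an unadjusted p under 0.05, beside 43.9% and 7.93% of all genes. These were PCYT2, which activates phosphoethanolamine (0.65), CHPT1, the choline phosphotransferase (0.45), and CHKA, a choline kinase (0.56). CEPT1, the brightest gene there, had 0.31.

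The diacylglycerol kinases, which return diacylglycerol to phosphatidate, had 3 positive and 5 negative folds among 8 measured of 9 genes, with a median of -0.17, and no unadjusted p under 0.05. DGKI (-0.29), DGKG (-0.48) and DGKB (-0.36) had the smallest p, and DGKQ (0.13) the highest mean signal. Of the 6 measured fat droplet and lipase genes 5 were positive, with a median of 0.28 and 2 at an unadjusted p under 0.05, CIDEC and MGLL (beside 43.9% and 7.93% of all genes). CIDEC, a droplet fusion protein, had a fold of 0.41, PNPLA2, the first triglyceride lipase, of 0.31, and PLIN1, the coat of the droplet and the brightest, of 0.07. MGLL, the monoglyceride lipase, had -0.60, at 619.9 ± 193.5 in the fat line and 933.0 ± 216.8 in the lean line (SD, n = 5 each).

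**Figure D5:**
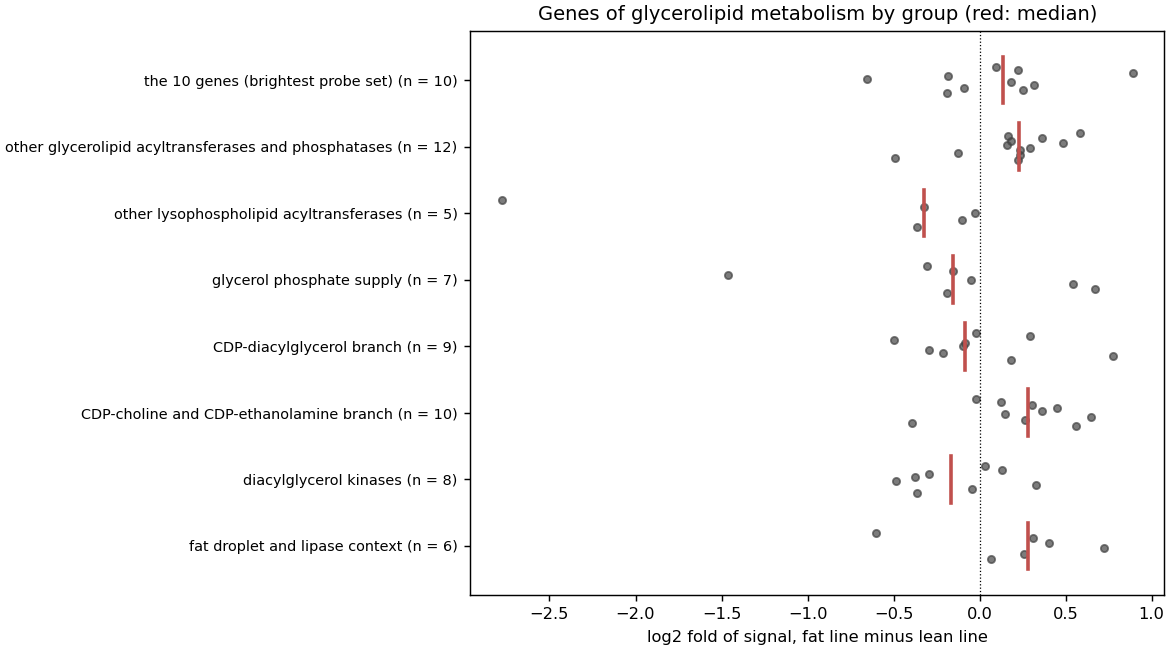
Log2 fold of signal, fat line minus lean line, of the 10 genes and of the genes of 7 related lists, each gene by its brightest probe set (points) with the median of the list (red bar). The median of the 10 genes is 0.14, and the list medians run from -0.33 in the other lysophospholipid acyltransferases to 0.28 in the CDP-choline and CDP-ethanolamine branch and in the fat droplet list.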

How the data were processed

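The authors computed and deposited the signal intensities, with MAS5 according to the submitters' processing notes, on a linear scale without detection calls, with the version not given in the sources used here. On the deposited values the trimmed mean of every array was checked to be 500.0 (2% left out at each end), so arrays were compared as given, and the total signal was 27256816 to 29311306 per array. Precision is limited by having 5 arrays per line. Of 38535 probe sets, 96 controls were left out. The array's annotation gave 27168 of the rest 1 gene symbol, 177 several and 11094 none, and all 10 genes matched their RefSeq gene records by identifier.

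Signals were log2 transformed, and all probe sets were fitted with limma 3.58.1 (R 4.3.3), using lmFit and eBayes with the intensity trend on, by two-sided tests adjusted after Benjamini-Hochberg over all 38439 probe sets. SAM (delta 0.8, 100 permutations) was the alternative test. An exact permutation test over 252 labellings served for single values, and permutation for correlations, by 100000 resamples, in Python 3.11.15 with scipy 1.17.1.

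All probe sets of the 10 genes were described, with values per bird for the brightest of each gene and for any other at an unadjusted p under 0.05. The values per bird of the other DGAT2 probe set were added after they were seen. Of each related list the 3 genes of smallest p and the brightest were named. GPAT3, MBOAT1, GK2 and the single blood cell markers were added after their values were seen. For likeness the 2 genes of highest r were taken. The genes and lists were chosen with earlier results of these data known. The arrays come from 10 birds, and the replicate numbers of the labels did not pair birds across lines. Alternatives were quantile or median scaling, a filter, a pseudocount of 50, a floor of 100, no intensity trend, a replicate block, scan day, and leaving out birds. Wash runs as a block, leaving out the 3 birds of high muscle markers, quantile scaling without fat line 4 and the form of the fit within scan days were chosen after seeing the data.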

Additional observations from a re-analysis of the deposited data

Results flagged for a closer look

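Over the 20 probe sets and both lines, 40 groups of 5 birds were tested for a bird standing apart (Dixon's ratio of gap to range above 0.71, on log2 signals, which weigh low values more than the linear signals given here), and 4 were found; chance alone marks about 1 in 20 such groups. AGPAT2 was lowest in fat line 5, with 300.8 against 474.5 to 520.3 in the other fat line birds. LPCAT3 (Gga.19112.1.S1_at) was likewise lowest in fat line 5, with 1655.6 against 2023.9 to 2143.4. AGPAT5 was lowest in lean line 3, with 135.3 against 453.7 to 644.2 in the other lean line birds. LPIN2 (GgaAffx.9429.1.S1_s_at) was lowest in lean line 3, with 156.8 against 363.9 to 430.2.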

How the results depend on the processing

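No probe set of the 10 genes reached an adjusted p under 0.05 in any fit. The sign of the fold was compared for 13 probe sets, the brightest of each gene and the others given per bird. Of 298 comparisons with alternatives, 279 kept the sign and 19 turned it. The remaining probe sets were not in this count. The count at an unadjusted p under 0.05, 2 as given, was 1 without an intensity trend or without the 3 birds of high muscle markers, 0 within the first scan day, where 1 bird a line took its spread from the birds of other days, so that this count says nothing of that day, 5 within the third (AGPAT2, both DGAT2 probe sets and 2 of LCLAT1) and 1 to 3 when a bird was left out, with 1 without fat line 3, lean line 1 or lean line 3. The median fold over the genes, 0.14 as given, was -0.16 within the first scan day, 0.006 without the 3 birds and 0.05 to 0.17 when a bird was left out. The adjusted p of LCLAT1 GgaAffx.5721.1.S1_at ran from 0.219 to 0.755 outside the first scan day. That of the brightest DGAT2 probe set ran from 0.166 to 0.956. Within the first scan day, 1 bird of each line, folds turned to -0.42 (AGPAT2), -0.25 (AGPAT5), 0.30 (LPIN1), 0.58 (LPIN2), -0.30 and -0.62 (DGAT2), -0.15 and -0.45 (LCLAT1) and -0.17 (LPCAT3). Other turns were AGPAT3 to 0.005 with equal medians; LPIN2 to 0.17 with scan day and 0.16 with wash run as a block, 0.024 within the third scan day and -0.31 to 0.023 when a bird was left out, turning without lean line 1; AGPAT5 to -0.24 without the 3 birds and -0.20 (without lean line 3) to 0.36 when a bird was left out; LPIN1 to 0.044 without fat line 4, its lowest value when a bird was left out being -1.07; and GPAM to 0.011 and LPIN1 to 0.073 with quantile scaling without fat line 4. The causes were not tested.

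Birds of the same replicate number did not deviate together (r of -0.14 to 0.06), and the fit with the replicate block gave 0 calls, 3 probe sets at an unadjusted p under 0.05 (a DGAT2 probe set in addition) and a median fold of 0.14. The median fold of all probe sets was -0.05 as given, 0.04 with equal medians and -0.11 without fat line 4. Without detection calls, low signals such as those of LPIN2 GgaAffx.9429.4.S1_at cannot be told from background.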
